A study of Mus musculus with 8 samples.

Results

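Pericytes are mural cells that wrap brain capillaries, and the genes described here are the ones by which they are commonly recognised, together with the growth factor that attracts them. The set was chosen by gene symbol and holds 10 of the 31053 genes in the count matrices: Pdgfb, Pdgfrb, Anpep, Cspg4, Abcc9, Kcnj8, Atp13a5, Rgs5, Vtn and Higd1b. All 10 were found. The counts are unique molecular identifiers (UMIs, 1 per captured RNA molecule) from droplet single-cell libraries of dissociated mouse cortex. The 4 groups were Lama4-/- mice, their wild-type (WT) control, Tek-Cre:Lama5-/- mice, and a separate WT control for the latter. Mice were 8 weeks old, and each group was 1 pool of 3 brains sampled as 2 libraries, so all errors below are between libraries of a pool and leave out the spread between mice. Lama4 and Lama5 encode laminin alpha chains of the vascular basement membrane. Tek-Cre recombines in endothelium and also in part of the blood cell lineage, so the Tek-Cre:Lama5-/- deletion is not one of pericytes.

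Both deposited Lama4-/- samples were identical and were counted as 1 library, which leaves 7 libraries and no test for that knockout. The libraries held 6295 to 9556 cell barcodes and 35479306 to 48314458 UMIs, and pairs of libraries shared 6 to 27 barcodes. Lama4 had 1 UMI in endothelial-like cells of the Lama4-/- library (0.0682 unscaled CPM, the gene's UMIs relative to all UMIs of the class in that library, against 47.0 and 43.8 in its WT libraries). Lama5 stood at 20.2 and 20.9 unscaled CPM in endothelial-like cells of the Tek-Cre:Lama5-/- libraries against 37.9 and 37.4 in WT. Which part of either gene is deleted is not given in the sources used here, and 3′ tags need not lie in it. Choroid plexus-like and ependymal-like cells were recovered beside cortical classes, although the tissue is labelled as cortical plate.

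PDGF-B, the protein of Pdgfb, is secreted mainly by endothelial cells, held at the vessel wall by heparan sulfate, and bound by the receptor tyrosine kinase PDGFR-beta (Pdgfrb) on mural cells. In the developing brain this signal recruits pericytes to new vessels, and in the adult it maintains their coverage of capillaries. Anpep (aminopeptidase N) and Cspg4 (the NG2 proteoglycan) are surface proteins long used to label pericytes. Kcnj8 and Abcc9 encode the pore and the sulfonylurea receptor of the ATP-sensitive potassium channel of vascular mural cells. Atp13a5 encodes a P-type ATPase, Rgs5 a regulator of G protein signalling, Vtn the secreted integrin ligand vitronectin, and Higd1b a small protein of the hypoxia-induced HIG family.

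Kcnj8 and Abcc9 are neighbours in the genome. In GENCODE M21 on GRCm38, Kcnj8 (ENSMUSG00000030247) lies on the minus strand at chr6:142564837-142571614 and Abcc9 (ENSMUSG00000030249) on the same strand at chr6:142587862-142702315. They are 16247 bases apart with 0 annotated genes between them. Their promoters are shown because Abcc9 was the member closest to Kcnj8 in its profile over cell classes. Each sequence runs 5′ to 3′ on the minus strand from 250 bases before to 50 bases after the start in RefSeq (GRCm38.p6), at chr6:142571565-142571864 for Kcnj8 and chr6:142702225-142702524 for Abcc9. Capitals mark matches to the core TGGGAA of the Notch partner RBPJ and to the E-box CANNTG, the site of basic helix-loop-helix factors.
Kcnj8: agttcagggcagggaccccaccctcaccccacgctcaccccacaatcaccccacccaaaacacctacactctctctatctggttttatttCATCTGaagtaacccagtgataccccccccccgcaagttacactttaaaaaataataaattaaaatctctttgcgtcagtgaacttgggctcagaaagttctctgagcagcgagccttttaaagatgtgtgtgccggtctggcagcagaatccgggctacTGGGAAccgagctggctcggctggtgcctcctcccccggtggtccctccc
Abcc9: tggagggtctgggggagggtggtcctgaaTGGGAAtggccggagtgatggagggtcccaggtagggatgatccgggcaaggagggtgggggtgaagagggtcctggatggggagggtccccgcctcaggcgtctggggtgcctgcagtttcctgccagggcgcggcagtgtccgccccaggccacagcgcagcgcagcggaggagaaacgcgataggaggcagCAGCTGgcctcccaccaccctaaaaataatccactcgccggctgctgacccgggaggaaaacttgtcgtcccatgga
Each promoter held 1 RBPJ core and 1 E-box, and these matches overlapped no other. In Kcnj8 the RBPJ core spans bases 251 to 256 of the printed sequence and the E-box bases 91 to 96. In Abcc9 the RBPJ core spans bases 30 to 35 and the E-box bases 224 to 229. Both strands were searched, and CANNTG reads the same on both. RefSeq promoters of this length were matched for 7 of the 10 members, and not for Pdgfb, Pdgfrb and Higd1b. The RBPJ core was in 3 of the 7 (Kcnj8, Abcc9 and Vtn), against 25.6% of 32851 promoters, and the E-box in 6 of the 7 (all but Cspg4), against 72.3%. The forkhead core TGTTTA was in 2 of 7 (13.4% of all), the GC box GGGCGG in 3 of 7 (35.7%), the GATA core AGATAA in 2 of 7 (11.2%) and the CArG box, bound by serum response factor, in 0 of 7 (1.63%). GC content was 53.3% for Kcnj8 and 65.7% for Abcc9, against a median of 52.7% over all promoters. These matches describe letters in a window and show no binding.

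The other members lie apart from each other on the same build. Pdgfb (ENSMUSG00000000489) is at chr15:79995874-80014977 on the minus strand and Pdgfrb (ENSMUSG00000024620) at chr18:61045150-61085061 on the plus strand. Anpep is at chr7:79821803-79861059, minus strand, and Cspg4 at chr9:56865033-56899870, plus strand. Atp13a5 is at chr16:29231851-29378732, minus strand, and Rgs5 at chr1:169655501-169695813, plus strand. Chromosome 11 holds Vtn (chr11:78499091-78502324) and Higd1b (chr11:102835849-102838040), both on the plus strand. All 10 are protein-coding genes, and 0 exons of other measured genes overlap theirs on the same strand.

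Cells were clustered and named without the counts of the 10 members, although the rule that separates the mural classes was set after their levels had been seen. A marker was met in a cluster when found in at least 25% of its cells and at 2 times the median cluster. Of 12 other pericyte markers (among them Notch3, Cox4i2, Ndufa4l2, P2ry14, Art3, Slc6a20a, Gper1, Ifitm1, Pth1r and Gm13861), all 12 were met in 1 cluster of 1389 cells, called pericyte-like here. It met 4 of 12 smooth muscle markers. Another cluster of 1238 cells met 11 of 12 smooth muscle markers, led by Tagln, Acta2 and Tpm2, and 7 of the pericyte markers, and is called smooth muscle-like. A population of 1342 cells, cluster 11, met 11 pericyte and 10 smooth muscle markers, with Olfr558, Ano1 and Notch3 among its leading genes, and was left unnamed. Cluster 30, with 162 cells, met 9 and 8, was led by Col3a1, Ifitm1 and Cxcl1, and was also left unnamed. Pericyte-like cells were shallow, with a median of 2000 to 2881 UMIs per cell by library, against 4585 to 9519 in smooth muscle-like and 2503 to 5775 in endothelial-like cells.

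Pericyte-like cells held the highest level of 9 of the 10 members among the 15 named classes. Levels below are unscaled CPM, listed as WT 1 and WT 2 of the Lama4 experiment, Lama4-/-, WT 1 and WT 2 of the Lama5 experiment, then Tek-Cre:Lama5-/- 1 and 2. The receptor Pdgfrb stood at 2334, 2508, 2091, 1624, 1605, 1569 and 1720.0. All 3 libraries of the Lama4 experiment were higher than all 4 of the Lama5 experiment. The class with the next level was smooth muscle-like cells, at 183 to 331, followed by fibroblast-like cells at 62.3 to 258 and astrocyte-like cells at 76.4 to 91.0. The smooth muscle-like and fibroblast-like ranges overlap, and so do those of fibroblast-like and astrocyte-like cells.

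The surface proteins differed in how widely they were found. Anpep stood at 195, 210.1, 200.4, 116, 129, 128 and 117 in pericyte-like cells, at 24.1 to 93.9 in fibroblast-like cells and at 0 to 1.38 in smooth muscle-like cells. Cspg4 stood at 932, 937, 896, 585, 563, 520 and 482 in pericyte-like cells and at 318 to 422 in smooth muscle-like cells. The lowest pericyte-like library was above the highest smooth muscle-like library for both genes, by a wide margin only for Anpep. Fibroblast-like cells, at 0 to 12.6, were far lower than both mural classes in Cspg4.

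The channel genes were low in every other named class, at most 14.6 for Kcnj8 and 18.1 for Abcc9 over all libraries. Kcnj8 stood at 1544, 1643, 1358, 1358, 1171, 962 and 1162 in pericyte-like cells and at 0 to 4.34 in smooth muscle-like cells. Abcc9 stood at 1242, 1223, 1023, 1513, 1348, 1496 and 1499.5 in pericyte-like cells and at 0 to 7.81 in smooth muscle-like cells. The next class for both was fibroblast-like cells, at 0 to 33.7 for Kcnj8 and 0 to 42.1 for Abcc9, from 29 and 36 UMIs in all. Atp13a5, the ATPase, stood at 2047, 2072, 1915, 1329, 1221, 1269 and 1200.2 in pericyte-like cells, at 0 to 9.77 in smooth muscle-like cells and at 8.95 to 20.1 in astrocyte-like cells.

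Rgs5, Vtn and Higd1b were carried by more than 1 mural population. Rgs5 stood at 7244, 7845, 6664, 9334, 9526, 9527 and 8714 in pericyte-like cells and at 967 to 2374 in smooth muscle-like cells. Vtn stood at 23401, 22149, 24142, 13154, 13012, 11630 and 11975 in pericyte-like cells, at 171 to 291 in smooth muscle-like cells, and in fibroblast-like cells from 7.79 to 3946 by library. Higd1b stood at 1390.2, 1499, 1112, 1725, 1835, 1832 and 1701 in pericyte-like cells and at 169.6 to 371 in smooth muscle-like cells. For Rgs5 and Higd1b the 4 libraries of the Lama5 experiment lay above the 3 of the Lama4 experiment, and for Vtn below.

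**Figure D1:**
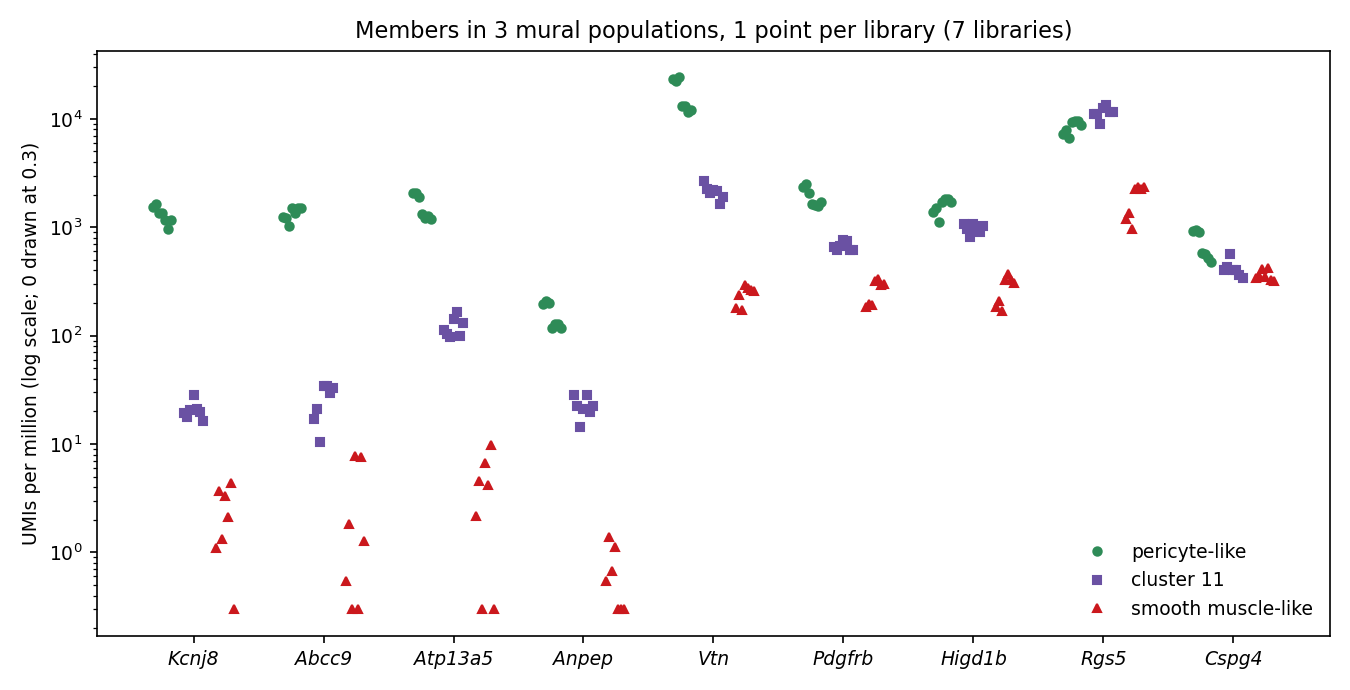
Levels of 9 members in unscaled CPM (log axis, values of 0 drawn at the bottom) in pericyte-like cells (green circles), cluster 11 (purple squares) and smooth muscle-like cells (red triangles), with 1 point for each of the 7 libraries. Kcnj8, Abcc9, Atp13a5 and Anpep fall steeply from pericyte-like to smooth muscle-like cells, the pooled ratio for Cspg4 is 2.08, and Rgs5 is highest in cluster 11.

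Summed over libraries, the ratio of pericyte-like to smooth muscle-like cells split the members. It was 589 for Abcc9 (from 4654 and 20 UMIs), 587 for Kcnj8 (4867 and 21), 459 for Atp13a5 (5991 and 33), 251 for Anpep (595 and 6) and 80.0 for Vtn. It was 8.46 for Pdgfrb, 6.24 for Higd1b, 5.01 for Rgs5 and 2.08 for Cspg4. Thus 5 members were at least 10-fold higher in pericyte-like cells, and 8 were when members were allowed to shape the clusters, since Pdgfrb, Rgs5 and Higd1b then passed. With doublets kept the ratio fell to 14.5 for Anpep, 28.9 for Atp13a5, 88.0 for Abcc9 and 125 for Kcnj8. The size of these ratios therefore depends on how the classes were drawn, while the 5 members stayed above 10-fold in all 4 other definitions tried.

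In cluster 11, which carried both mural marker sets, the members fell below pericyte-like levels to different degrees, apart from Rgs5 and Pdgfb. Kcnj8 stood at 16.4 to 28.2 unscaled CPM by library and Abcc9 at 10.3 to 34.6, above every smooth muscle-like library and far under the lowest pericyte-like library (962 and 1023). Rgs5 stood at 8946 to 13285, and its level over all libraries of 11695 was above the 8187 of pericyte-like cells. Within each of the 7 libraries Rgs5 was higher in cluster 11 than in pericyte-like cells, for example 11159 against 7244 in WT 1 of the Lama4 experiment and 8946 against 6664 in the Lama4-/- library. Higd1b (809 to 1078), Pdgfrb (615 to 757), Cspg4 (342 to 567), Vtn (1644 to 2659) and Atp13a5 (97.2 to 166) lay between pericyte-like and smooth muscle-like levels in their overall values. So did Anpep (14.5 to 28.2), Kcnj8 and Abcc9. In cluster 30 Kcnj8 was higher again, at 288 to 817, with Abcc9 at 0 to 299.7 from few cells.

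Shares of cells with a UMI were compared after each cell was thinned to 1000 UMIs. This kept 1328 pericyte-like, 1326 cluster 11 and 1238 smooth muscle-like cells, and 6595 microglia-like cells (median depth 2998 to 7472 UMIs by library) as a class that should lack the mural genes. Vtn was found in 99.9% of pericyte-like cells (exact binomial 95% interval 99.6 to 100), 68.9% of cluster 11, 15.9% of smooth muscle-like and 1.05% of microglia-like cells. Rgs5 was found in 98.0%, 97.6%, 61.2% and 0.789%, so that it scarcely differed between the first 2 populations. Pdgfrb was found in 84.5% (82.4 to 86.4), 48.8%, 20.8% and 0.212%.

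The channel genes, Atp13a5 and Anpep were found in few smooth muscle-like cells by this measure. Kcnj8 was found in 65.5% of pericyte-like cells (62.9 to 68.1), 1.96% of cluster 11, 0.0808% of smooth muscle-like cells (1 cell) and 0.121% of microglia-like cells. Abcc9 was found in 65.0%, 3.54%, 0.162% and 0.0607%. The smooth muscle-like shares are at the microglia-like background for Kcnj8, and within counting error of it for Abcc9 and Atp13a5 (78.8%, 14.6%, 0.162% and 0.227%). Anpep was found in 16.3%, 2.41%, 0.0808% and 0 of 6595 cells, which allows a share of up to 0.0455%. Higd1b was found in 70.6%, 56.0%, 20.2% and 0.106%, and Cspg4 in 49.9%, 30.6%, 26.8% and 0.182%. Without thinning, the pericyte-like shares were 99.9% for Vtn, 98.6% for Rgs5, 96.3% for Pdgfrb, 82.3% for Kcnj8, 85.0% for Abcc9, 94.1% for Atp13a5, 34.0% for Anpep, 85.7% for Higd1b and 76.03% for Cspg4.

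Single pericyte-like cells held most of the set at once. Of the 1328 thinned cells, 870 had a UMI of Kcnj8, 863 of Abcc9 and 602 of both. At least 5 of the 10 members were seen in 92.8% of them (91.2 to 94.1), with a median of 6. By library this share was 95.02% and 95.3% in the Lama4 experiment's WT, 90.6% in Lama4-/-, 93.1% and 89.9% in the Lama5 experiment's WT, and 90.3% and 90.8% in Tek-Cre:Lama5-/-. The share was 16.2% in cluster 11 and 0.485% in smooth muscle-like cells. Without thinning it was 97.7%, 73.2% and 30.2%. Intervals cover counting error only.

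Over the 15 named classes, profiles were compared by Pearson correlation of log2 of unscaled CPM plus 1, a description over classes that share libraries. The genes most like Pdgfrb were Carmn (0.931), a smooth muscle long non-coding RNA, the transcription factor gene Tbx2 (0.926) and the endothelin receptor gene Ednra (0.917). Among those most like Kcnj8 were Gm13470 (0.899) and Nts (0.894), the neurotensin gene. Among the members, Abcc9 was closest to Kcnj8 (0.945), ahead of Atp13a5 (0.878) and Vtn (0.835), and Vtn was closest to Pdgfrb (0.906).

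The ligand gene Pdgfb had its highest levels outside the mural cells, in endothelial-like and microglia-like cells. In endothelial-like cells it stood at 294, 307, 348, 244, 245, 203 and 198 unscaled CPM in the library order above, from 2871 to 5211 UMIs each. In microglia-like cells it stood at 216, 209, 179, 289, 263, 357 and 358. Endothelial-like cells were higher in 3 of 3 libraries of the Lama4 experiment, and microglia-like cells were higher in 4 of 4 of the Lama5 experiment. The ranges of both classes overlap. All 13 other classes were lower, from 45.5 over all libraries in T or NK-like cells (10.3 to 77.0 by library) to 1.88 in oligodendrocyte-like cells (1.12 to 14.5). Pericyte-like cells had 16.8 (10.9 to 24.9) and smooth muscle-like cells 19.4 (11.9 to 22.6).

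Thinned to 1000 UMIs, 22.6% of 24020 endothelial-like cells (22.0 to 23.1) and 20.2% of 6595 microglia-like cells (19.3 to 21.2) had a UMI of Pdgfb. The share was 0.121% in oligodendrocyte-like cells, the named class with the lowest Pdgfb level over all libraries. It was 1.51% in pericyte-like, 1.70% in smooth muscle-like and 3.62% in cluster 11 cells. In unscaled CPM over all libraries, pericyte-like (16.78) and smooth muscle-like cells (19.35) lay near fibroblast-like (18.57) and neuron or neuroblast-like cells (19.83). Whether the mural shares exceed the background of other classes was not tested. Unthinned shares were 56.3% in endothelial-like and 56.1% in microglia-like cells. Pdgfb profiles over classes were most like those of Elk3 (0.879), an ETS transcription factor gene, Piezo1 (0.837), a mechanically gated ion channel gene, and Pwwp2b (0.834).

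**Figure D2:**
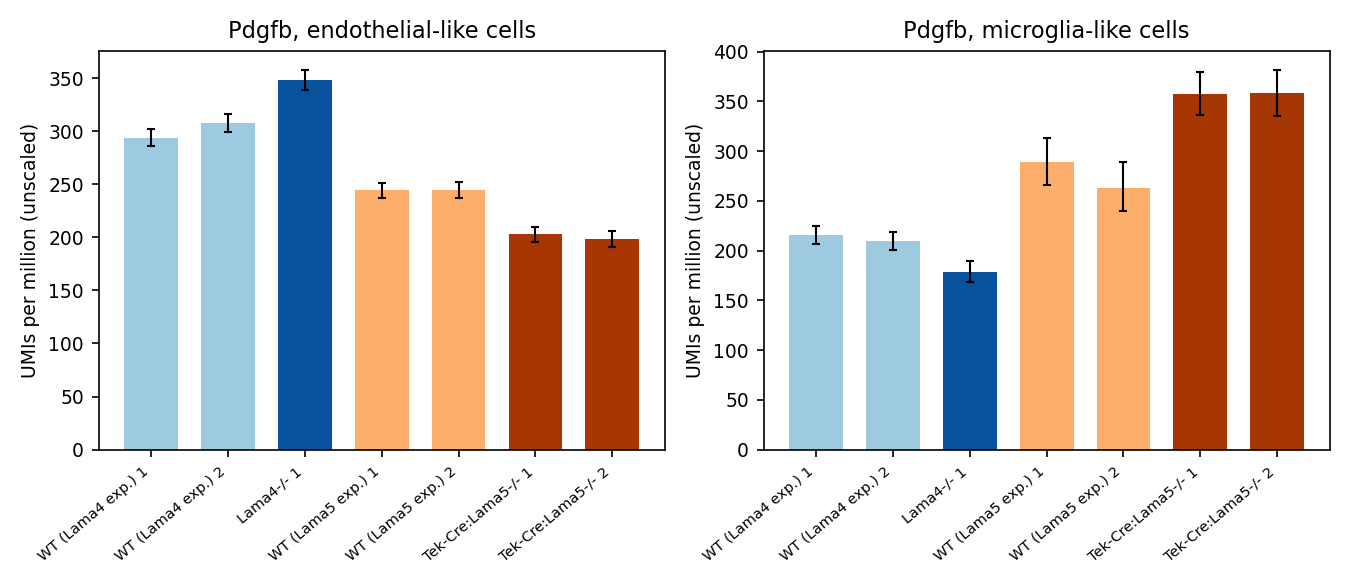
Pdgfb in endothelial-like (left) and microglia-like cells (right), in unscaled CPM, 1 bar per library with exact Poisson 95% intervals for counting error. In endothelial-like cells the Tek-Cre:Lama5-/- bars (203 and 198) are below their WT (244 and 245) and the Lama4-/- bar (348) is above its WT (294 and 307), while in microglia-like cells the order is the opposite in both experiments.

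Along the vessel tree, Pdgfb was lowest at the venous end. Endothelial-like cells were ranked in each library by arterial genes (Gkn3, Bmx, Efnb2, Sema3g, Vegfc, Mgp, Fbln5, Cytl1, Hey1 and Alpl) minus venous genes (among them Slc38a5, Nr2f2, Vwf, Vcam1, Il1r1, Ephb4 and Icam1), and the top and bottom 10% were taken as the ends. At the arterial end Pdgfb stood at 370.1, 335, 444, 257, 278, 259 and 233 unscaled CPM. In the middle it stood at 318, 337, 375, 259, 255, 209 and 205. At the venous end it stood at 199.5, 214, 233, 196, 204, 164 and 166. The venous end was below the middle and the arterial end in 7 of 7 libraries. The ratio of the arterial to the venous end was 1.57 ± 0.236 (SD, n = 7 libraries), from 1.31 to 1.91. The arterial end and the middle did not separate in all libraries, with a ratio from 0.990 to 1.24. Between 85 and 243 cells per library lie within 0.05 of a score boundary. Cells at the venous end were deeper, at a median of 6591 to 14411 UMIs against 2860.0 to 7121 at the arterial end, and Pdgfb per UMI was lower in deeper endothelial-like cells as a whole, for example 281 over 6000 UMIs against 386 under 3000 UMIs in WT 1 of the Lama4 experiment. The part of depth in the gradient was not tested by zone. Cluster 16, with the venous genes Vwf, Vcam1 and Icam1 among its leading genes, had 134 to 186, and cluster 8, led by the arterial genes Gkn3 and Fbln5 and left out of the endothelial-like class, had 241 to 362. Cluster 18, with the venous genes Slc38a5, Vwf and Il1r1 among its leading genes, held few cells of the Lama5 experiment. In the Lama4 experiment it had 262, 260 and 315 (WT 1, WT 2 and Lama4-/-), above the 134, 151 and 138 of cluster 16.

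**Figure D3:**
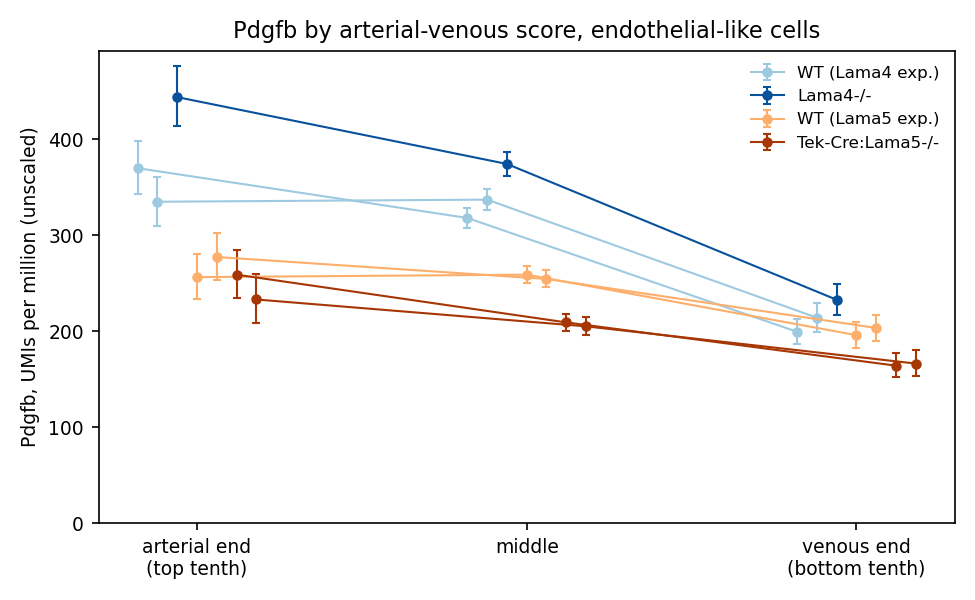
Pdgfb in unscaled CPM of endothelial-like cells at the arterial end, in the middle and at the venous end of the score, 1 line per library, coloured by group, with exact Poisson 95% intervals for counting error. All 7 lines fall from the middle to the venous end, and the Tek-Cre:Lama5-/- lines (164 and 166) end lowest.

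The first knockout comparison asks whether loss of laminin alpha 5 under Tek-Cre moved these genes in pericytes. None of the members passed the test in pericyte-like cells of the Tek-Cre:Lama5-/- libraries. By the edgeR quasi-likelihood test on summed counts (Benjamini-Hochberg adjusted p under 0.05 over all genes), 36 of 5978 genes passed, or 0.602%, and 1.71% of genes at 100 CPM or more. Of the 10 members, 9 passed the filter on low counts and 0 were called. DESeq2 called 6 genes and 0 members. At an unadjusted edgeR p under 0.05 stood 1 of the 9, Vtn, and 573 of all 5978 genes. The median log2 fold change of the 9 was 0.016, against 0.0075 for all genes tested. In data simulated with this number of libraries, 72 of 100 genes changed 1.5-fold and 98 of 100 changed 2-fold were recovered in pericyte-like cells. The spread between simulated libraries was set by hand, and only well-counted genes were changed. These shares are therefore not the power for the members in the real libraries.

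Values in the knockout and WT comparisons below are CPM on TMM-scaled totals unless called unscaled, here as WT 1 and 2 and then knockout 1 and 2. Vtn stood at 13615 and 13536 in WT and at 12491 and 13083 in the knockout, a log2 fold change of -0.086 (SE 0.030, edgeR quasi-likelihood adjusted p 0.249). Both knockout libraries were below both WT libraries. Kcnj8 stood at 1405 and 1218 against 1033 and 1269.7 (-0.19, SE 0.10, adjusted p 0.564), and its groups overlap. Cspg4 stood at 605 and 586 against 558 and 526 (-0.13, SE 0.12, adjusted p 0.762), without overlap. Abcc9, the channel partner of Kcnj8, stood at 1566 and 1402 against 1607 and 1638 (0.13, SE 0.084, adjusted p 0.651). Pdgfrb stood at 1681 and 1669.8 against 1685 and 1879 (0.088, SE 0.080, adjusted p 0.781). Both Abcc9 and Pdgfrb were higher in 2 of 2 knockout libraries on this scale, but not on unscaled totals. The share of all genes with both knockout libraries on one side of WT was not computed. The sides given here are therefore not read as a trait of the members. The other 4 members (Rgs5, Anpep, Higd1b and Atp13a5) had log2 fold changes from 0.014 to 0.060 with overlapping groups. When the cells of clusters 11 and 30 were added to the class, Abcc9 was called (0.23, adjusted p 0.0451), and 364 genes were.

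The 12 other pericyte markers, which had named the class, also gave no call. Of these, 11 had a lower fitted value and 1 a higher one, with a median of -0.18 against 0.0075 for all genes. The fitted log2 value of Art3 was -0.27 (SE 0.098), with an edgeR adjusted p of 0.303. Of a list of 24 other PDGF pathway genes (ligands, the receptor Pdgfra, signal transducers and regulators), 17 were tested in pericyte-like cells, 0 were called, 10 had a lower fitted value and the median was -0.066. RNA of other cells differed between libraries here. Globin, from red blood cells, stood at 641 and 676 unscaled CPM of pericyte-like cells in WT and at 82.2 and 9985 in the knockout. The 10 endothelial markers summed to 543 and 607 in WT and 413 and 542 in the knockout. The part of either in these values was not tested.

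Smooth muscle-like cells gave no member call either, although more of their genes passed. There, 204 of 7672 genes were called (2.66%, and 8.68% of genes at 100 CPM or more), and 0 of 6 members tested. Rgs5 stood at 2248 and 2344 against 2369 and 2457 (0.071, SE 0.057, edgeR adjusted p 0.669), Cspg4 at 342 and 417 against 339.7 and 337 (-0.17, SE 0.097, adjusted p 0.470), and Pdgfrb at 317 and 326 against 307 and 318 (-0.045, SE 0.10, adjusted p 0.911). Of 10 other pericyte markers tested, 1 rose: Gper1, a G protein-coupled oestrogen receptor gene, from 513 and 576 to 633 and 680 (0.27, SE 0.081, adjusted p 0.0471). Without WT library 1 it was 0.18 (adjusted p 0.626), without WT library 2 0.36 (0.0725), without knockout library 1 0.32 (0.0501) and without knockout library 2 0.21 (0.439), so the call was lost in each. The class was unstable: with doublets kept Vtn was called (-0.20, adjusted p 0.0215), and at a finer clustering Rgs5 (0.21, adjusted p 9.16e-05) and Vtn (0.25, adjusted p 0.00561) were, with the sign of Vtn reversed.

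In cluster 11, 307 of 8300 genes were called (3.70%), a test chosen after the results of the named classes were seen. The share among genes at 100 CPM or more is not given for this cluster. In both named mural classes that share was higher than the share over all genes. Of the 10 members tested in cluster 11, 1 fell: Vtn, from 2148 and 2132 to 1722 and 1987 (-0.21, SE 0.058, edgeR adjusted p 0.0411), lower in 2 of 2 knockout libraries. The call was lost without WT library 1 (-0.21, adjusted p 0.148), without WT library 2 (-0.21, adjusted p 0.124) and without knockout library 1 (-0.11, adjusted p 0.372). Pdgfrb stood at 744.5 and 728 against 647 and 649 (-0.18, SE 0.068, adjusted p 0.153) and Atp13a5 at 139 and 164 against 104 and 137 (-0.33, SE 0.14, adjusted p 0.230). Of the 10 members, 9 had a lower fitted value, and the median was -0.15 against -0.0030 for all genes tested. Of the 12 other pericyte markers 10 had a lower fitted value and 1 was called, Ifitm1 (-0.48, edgeR adjusted p 0.0368). RNA of other cells moved too: the 10 endothelial markers summed to 234 and 220.1 unscaled CPM in WT and 305 and 248 in the knockout, with 1 of 9 tested called higher (Flt1) and a median of 0.56, and the 8 microglia markers to 103 and 110 against 121 and 185, with 0 of 5 called and a median of 0.53. Their part in the member values was not tested.

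Endothelial Pdgfb fell in the Tek-Cre:Lama5-/- libraries. It stood at 237.9 and 238 CPM in WT and at 207.8 and 205.2 in the knockout, and both knockout libraries were below both WT libraries. The log2 fold change was -0.20 (SE 0.026, edgeR adjusted p 1.48e-06). It was the 1 member called of 9 tested, where 2350 of 12931 genes were called (18.2%) and 51.7% of genes at 100 CPM or more, so a call at this level was common. Leaving out each library in turn gave -0.22 to -0.20. The fall was seen within each range of depth: in cells of 3000 to 6000 UMIs, Pdgfb stood at 249 and 250.4 unscaled CPM in WT and at 211 and 208 in the knockout, and in cells over 6000 UMIs at 233 and 228 against 193 and 183. By zone the log2 ratio of group means was -0.12 at the arterial end, -0.31 in the middle and -0.27 at the venous end. At the arterial end knockout library 1 (259) lay between the WT libraries (257 and 278). The other members in endothelial-like cells summed to 28.3 to 50.9 unscaled CPM and are not described singly.

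Markers of another cell type moved in these cells. Of 8 microglia markers, 6 were called higher in endothelial-like cells of the knockout, and their summed level was 110.4 and 108.7 unscaled CPM in WT and 135 and 139 in the knockout. Microglia-like cells held more Pdgfb per UMI than endothelial-like cells in these libraries. Of 7 astrocyte markers tested, 5 were called lower, and astrocyte-like cells held little Pdgfb (28.7 unscaled CPM). The part of RNA of other cells in the lower endothelial Pdgfb was not tested. Between the WT groups of the experiments, endothelial Pdgfb stood at 283 and 294 CPM against 255 and 255.3 (log2 -0.18, SE 0.030, edgeR adjusted p 1.14e-04), where 54.9% of genes were called and 76.7% of those at 100 CPM or more. That difference between pools of WT mice is close in size to the knockout difference.

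Of the PDGF pathway list, 23 of 24 genes were tested in endothelial-like cells, and 1 fell and 1 rose. Plcg1, the phospholipase recruited by receptor tyrosine kinases, went from 95 and 99.8 CPM to 83.4 and 87.3 (log2 -0.19, SE 0.040, edgeR adjusted p 9.60e-04). Pdgfa, which encodes the other classical PDGF chain, went from 29.3 and 30.7 to 34.3 and 34.9 (0.20, adjusted p 0.0206). The Pdgfa call was lost without WT library 1 (0.17, adjusted p 0.155), without knockout library 1 (0.21, adjusted p 0.0580) and without knockout library 2 (0.19, adjusted p 0.0868). The median of the list was -0.051 against -0.0014 for all genes tested.

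Microglial Pdgfb rose in the same libraries, in a test chosen after the results were seen. It stood at 282 and 257 CPM in WT and at 370.4 in each knockout library, up by 0.45 on the log2 scale (SE 0.061, edgeR adjusted p 1.07e-05), and by 0.39 to 0.54 with each library left out in turn. In this class 1208 of 9436 genes were called (12.8%), and 39.4% of genes at 100 CPM or more. The class held 511 and 478 cells in WT and 901 and 852 in the knockout. Of 8 microglia markers 7 were called lower, with a median of -0.17 and a summed level of 21722 and 21724 unscaled CPM in WT against 18635 and 18375 in the knockout. Of 4 astrocyte markers tested 2 were called lower (Aldoc and Slc1a3), and the 8 of that list summed to 245 and 226 against 144 and 153. The part of these in the rise of Pdgfb was not tested. Of the PDGF pathway list 20 genes were tested there, and 6 rose and 0 fell. In the WT groups microglial Pdgfb was 0.19 higher in the Lama5 experiment (SE 0.061, edgeR adjusted p 0.0109), where 50.5% of genes were called. A single edgeR fit over both classes gave a difference between the microglia-like and the endothelial-like effect of 0.68 (SE 0.068, adjusted p 2.22e-13), where 5.37% of 13012 genes were called. Vtn was also called in microglia-like cells, but from 7.37 and 2.83 CPM to 20.5 and 7.20 (1.43, SE 0.45, adjusted p 0.0356), with overlapping groups. That call was lost without WT library 2 (0.96, adjusted p 0.202) and without knockout library 1 (0.46, adjusted p 0.735).

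The second knockout comparison, Lama4-/- against its WT, rests on 1 library and has no test. Genes were counted as past the fold when at least 1.5-fold from the WT mean and outside both WT libraries, among genes at 20 CPM or more. In pericyte-like cells 779 of 6934 genes were past it (11.2%), and 0 of 9 members. Of these 9 members, 7 were below both WT libraries, 1 was above both and 1 lay between. Over all genes counted, 39.1% lay below both WT libraries, and 44.0% of those at 100 CPM or more.

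Values are given as WT 1, WT 2 and Lama4-/- in scaled CPM, with the ratio of the knockout to the WT sum and its counting interval. Higd1b was furthest from WT, at 1407, 1493 and 1103 (ratio 0.761, 0.695 to 0.833). Abcc9 stood at 1257, 1218 and 1015 (0.820, 0.745 to 0.902) and its partner Kcnj8 at 1562, 1636 and 1348 (0.843, 0.776 to 0.915). The receptor gene Pdgfrb stood at 2362, 2498 and 2074 (0.854, 0.799 to 0.913) and Rgs5 at 7331, 7814 and 6611 (0.874, 0.841 to 0.907). These 5 intervals, and those of Atp13a5 and Vtn given next, exclude 1, but they cover counting error and not the spread between libraries or mice. Atp13a5 stood at 2072, 2064 and 1899.9 (0.919, 0.856 to 0.986) and Cspg4 at 944, 933 and 888 (0.947, 0.853 to 1.05). Vtn was above both WT libraries, at 23681, 22061 and 23951 (1.05, 1.03 to 1.07), and Anpep lay between them, at 197, 209 and 199.

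The pericyte-like cells of the Lama4-/- library also held more RNA of other cells. Ttr, the transthyretin gene of choroid plexus, stood at 321 and 286 unscaled CPM in WT and 2474 in the knockout, and globin at 311 and 242 against 13003. The part of these in the values above was not tested. The summed level of the 12 naming markers was 10058, 10257 and 10139, so it differed little between the 3 libraries. These markers had named the class, so their sum is not a measure independent of that choice.

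Cluster 11 of the Lama4-/- library also had lower Rgs5. It stood at 11319, 11109 and 8810 CPM (ratio 0.785, 0.760 to 0.811), and Vtn (2698, 2274 and 2031) and Higd1b (1094, 962 and 797) were below both WT libraries too. Cspg4 was above both, at 412, 425.5 and 558 (1.33, 1.16 to 1.53). In this cluster 709 of 6145 genes were past the fold (11.5%), and 1 of 8 members, Anpep, from few UMIs (28.6, 22.3 and 14.3). Over all genes counted there, 39.6% lay below both WT libraries.

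In smooth muscle-like cells 241 of 5507 genes were past the fold (4.38%), and 0 of 5 members. With doublets kept it was 3 of 7 members, all lower in Lama4-/-: Rgs5 (log2 ratio -0.62), Vtn (-0.65) and Atp13a5 (-0.87). There 145 of 5840 genes were past the fold. That class was drawn wider, with 345, 365 and 267 cells instead of 189, 225 and 180. Its Rgs5 over all libraries was 5609 unscaled CPM against 1633. The part of this change of cells in the lower values was not tested. In the main class Rgs5 stood at 1228, 1357 and 942 CPM (ratio 0.725, 0.683 to 0.769). Vtn stood at 184, 241 and 167, Higd1b at 189, 211 and 165 and Pdgfrb at 187, 197 and 185. These 4 were below both WT libraries, as were 40.1% of genes counted, and Cspg4 was above both, at 348, 358 and 398. Endothelial Pdgfb was above both WT libraries, at 299.4, 309 and 339.7 CPM (ratio 1.12, 1.08 to 1.16), and microglial Pdgfb below both, at 219, 211 and 175 (0.813, 0.762 to 0.867). The share of endothelial genes above both WT libraries was not computed. The log2 ratio of endothelial Pdgfb was 0.158, where the SD over all genes counted in that class was 0.175. In microglia-like cells 44.4% of genes lay below both WT libraries and 1.39% were past the fold, without Pdgfb. In endothelial-like cells 55 of 6368 genes were past the fold (0.864%), and Pdgfb was not among them. Rgs5 was, at 29.5, 18.9 and 15.7 CPM, a log2 ratio of -0.61 that was -0.26 without WT library 1. In cells of 3000 to 6000 UMIs endothelial Pdgfb stood at 367 against 323 and 325 unscaled CPM, and over 6000 UMIs at 333 against 281 and 299. Under 3000 UMIs it stood at 395 against 386 and 361, with overlapping counting intervals, so a rise was not resolved there. The rise was also seen at the arterial end (444 against 370.1 and 335) and at the venous end (233 against 199.5 and 214). It was not seen in every cluster. In the arterial cluster 8 the Lama4-/- library (327) was below both WT libraries (347 and 362), and in the venous cluster 16 it lay between them (138 against 134 and 151). In cluster 18, also led by venous genes, it was above both (315 against 262 and 260). With cluster 8 added to the class the arterial end stood at 361 against 337 and 343.

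The WT groups of the experiments were then compared with each other, to show how far pools of control mice differ. In pericyte-like cells 1173 of 7529 genes were called by edgeR (15.6%), 35.3% of those at 100 CPM or more, and 9 of 10 members. Of these members 6 were lower and 3 higher in the Lama5 experiment. Vtn stood at 23502 and 22097 CPM in the WT of the Lama4 experiment and at 13992 and 13948 in the WT of the Lama5 experiment (log2 -0.71, SE 0.043, edgeR adjusted p 6.08e-18). Anpep (-0.63), Cspg4 (-0.61), Atp13a5 (-0.60), Pdgfrb (-0.49) and Kcnj8 (-0.24) were lower as well, with adjusted p from 2.93e-09 to 0.0180. Rgs5 rose from 7275 and 7827 to 9929 and 10211 (0.42, SE 0.048, adjusted p 3.81e-09), Higd1b by 0.40 and Abcc9 by 0.31. The channel genes Kcnj8 and Abcc9 thus moved in opposite directions between WT pools. Pdgfb, with 60 UMIs in all pericyte-like cells, was not called (-0.23, SE 0.50, adjusted p 0.813). In smooth muscle-like cells 17.4% of genes were called, 40.0% of those at 100 CPM or more, and 4 of 6 members rose: Rgs5 by 0.76, Higd1b by 0.72, Pdgfrb by 0.67 and Vtn by 0.32. The Vtn call was lost without WT library 1 of the Lama4 experiment (0.15, adjusted p 0.440), without WT library 1 of the Lama5 experiment (0.28, adjusted p 0.142) and with a replicate block (0.33, adjusted p 0.0911), and with stricter cell filters its sign turned (-0.25, adjusted p 0.102). Pdgfrb thus had opposite signs in the mural classes.

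Experiment, pool and preparation cannot be told apart in that comparison. Kcnj8 lost its call without WT library 2 of the Lama4 experiment (-0.21, adjusted p 0.0626) and without WT library 2 of the Lama5 experiment (-0.13, adjusted p 0.501). Anpep lost its call without WT library 2 of the Lama4 experiment (-0.59, adjusted p 0.0561) and without WT library 1 of the Lama5 experiment (-0.54, adjusted p 0.122), and Abcc9 without the latter (0.25, adjusted p 0.0978). With WT library 2 of the Lama5 experiment left out, 715 genes were called. Of the 1173 calls 720 were higher and 453 lower, but 573 and 689 on unscaled totals, which move the median of all genes from -0.012 to -0.11, and the 9 members were called on those too. For each of the 9 called members the distance between WT pools was larger than the fitted Tek-Cre:Lama5-/- difference in the same class. Oligodendrocyte markers, summed, were 133 and 136 unscaled CPM in pericyte-like cells of the Lama4 experiment's WT and 592 and 584 in the other, and their part was not tested.

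**Figure D4:**
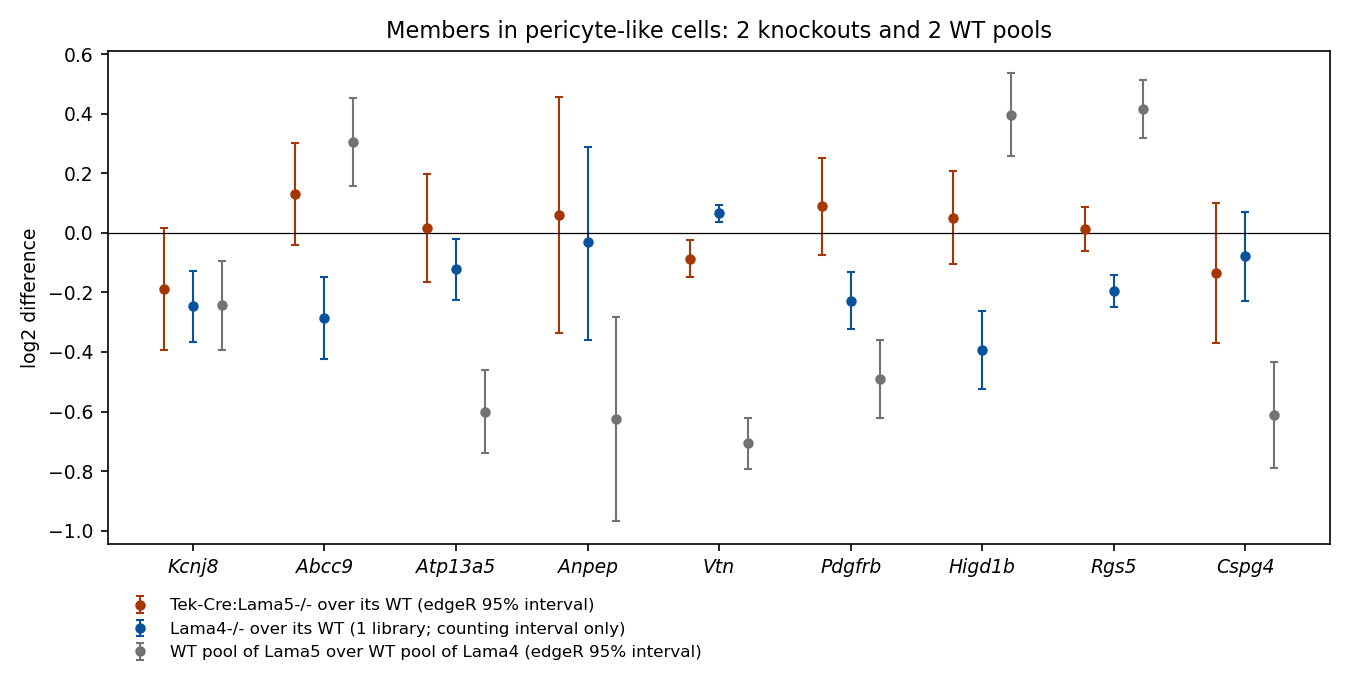
Log2 differences of 9 members in pericyte-like cells for Tek-Cre:Lama5-/- over its WT (brown, edgeR 95% intervals), Lama4-/- over its WT (blue, 1 library, intervals for counting error only) and the WT pool of the Lama5 experiment over that of the Lama4 experiment (grey, edgeR 95% intervals). The grey points, from -0.71 for Vtn to 0.42 for Rgs5, lie further from 0 than the brown ones, which run from -0.19 to 0.13.

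The number of mural cells recovered was also set against endothelium. Pericyte-like cells numbered 11.4 and 11.8 per 100 endothelial-like cells in the WT of the Lama4 experiment and 9.28 in Lama4-/-, from 248, 242 and 210 cells. In the Lama5 experiment they numbered 3.34 and 3.82 in WT and 4.23 and 4.01 in Tek-Cre:Lama5-/-, from 154, 177, 183 and 175 cells. The difference there was 0.539 per 100, with a two-sided exact permutation p of 0.3333, the smallest that 2 against 2 libraries can give. As a share of cells kept, pericyte-like cells made up 1.93% and 2.23% in WT and 2.35% and 2.20% in the knockout (exact permutation p 0.6667). In the Lama4 experiment the shares were 4.64% (exact binomial 95% interval 4.09 to 5.24) and 4.74% (4.17 to 5.36) in WT and 4.10% (3.57 to 4.68) in Lama4-/-, so the intervals overlap.

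Cluster 11 numbered 6.31 and 5.96 per 100 endothelial-like cells in the WT of the Lama4 experiment and 3.14 in Lama4-/-, and 5.24 and 5.33 in the other WT against 5.50 and 6.53 in Tek-Cre:Lama5-/-. Smooth muscle-like cells numbered 8.70, 10.99 and 7.96, and then 3.01, 3.43, 4.18 and 3.78. As a share of cells kept, cluster 11 made up 2.56%, 2.39% and 1.39%, and then 3.04%, 3.11%, 3.06% and 3.58%, so its groups overlap in the Lama5 experiment. Smooth muscle-like cells made up 3.54%, 4.41% and 3.51%, and then 1.74%, 2.00%, 2.33% and 2.07%. Recovery after enzymatic digestion is not the number of cells in the tissue, and the part of digestion was not tested. Cluster 26, with 178 cells, met 10 endothelial, 11 pericyte and 10 smooth muscle markers. It made up 0.213% and 0.340% of cells in WT and 0.900% and 0.778% in Tek-Cre:Lama5-/-, and is counted in no class.

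**Figure D5:**
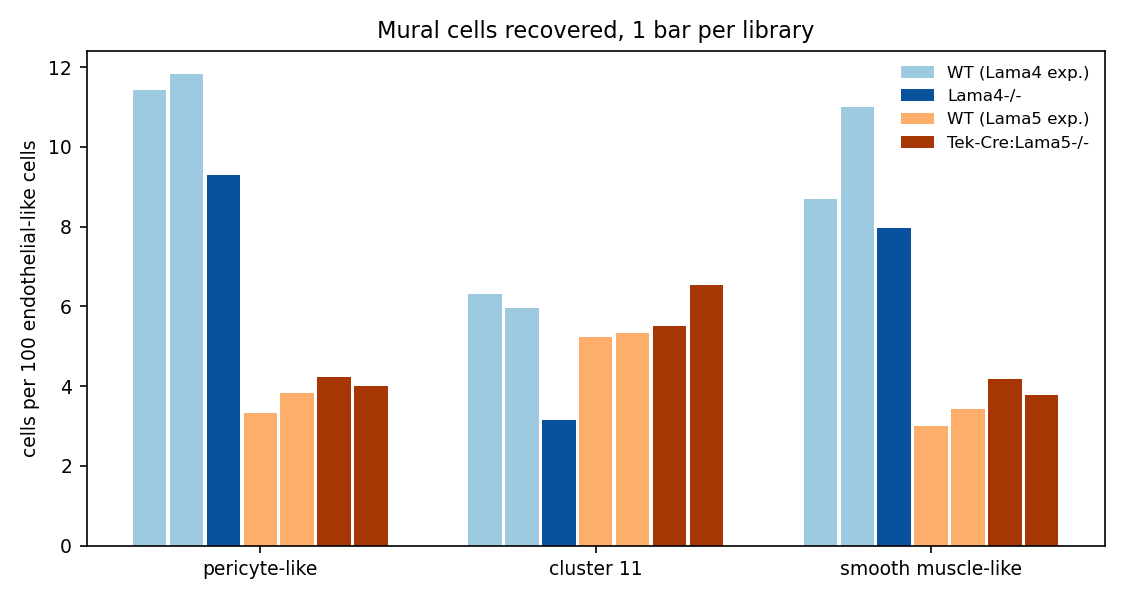
Cells recovered per 100 endothelial-like cells for pericyte-like cells, cluster 11 and smooth muscle-like cells, 1 bar for each of the 7 libraries, coloured by group (Lama4 experiment in blue, Lama5 experiment in orange and brown). In all 3 populations the Lama4-/- bar is below both of its WT bars and the Tek-Cre:Lama5-/- bars are above theirs. All 3 are divided by the same endothelial-like counts. As a share of cells kept, pericyte-like cells and cluster 11 of Tek-Cre:Lama5-/- overlap WT.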

How the data were processed

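Droplet single-cell RNA libraries of mouse cortex were deposited by the authors as filtered matrices of UMI counts per gene and cell barcode, made with Cell Ranger 3.1.0 per the file headers. The submitters' processing notes name mm10 and Seurat 3.1, and the counts are not normalised. Per the labels' protocols, cells came from enzymatic digestion with myelin removed. Both Lama4-/- samples hold identical values and were used as 1 library, leaving 7 libraries.

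Cells with at least 500 genes and under 15% mitochondrial UMIs were kept, and the most doublet-like cells (0.8% for each 1000 cells) were removed. Cells were clustered (scanpy 1.11.5, 2000 variable genes, 30 principal components, 15 neighbours, Leiden resolution 1) without the 10 members. Clusters were named from markers found in at least 25% of cells and at 2 times the median cluster, with at least 3 needed. A mural cluster took a name only with 3 more markers of its own than of the other mural class. That rule was set after marker counts and member levels were seen, and an earlier naming had put cluster 11 with the pericytes.

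UMIs were summed per library and class. Tek-Cre:Lama5-/- and the WT groups were tested with edgeR 4.0.16 (quasi-likelihood test, filterByExpr, TMM, Benjamini-Hochberg), with DESeq2 1.42.0 as an alternative. In data simulated for the pericyte-like comparison (5942 genes), with a spread set by hand and not estimated from these libraries, 16 unchanged genes were called. For Lama4-/-, log2 ratios used a pseudocount of 0.5 CPM. Replicate numbers were checked for pairing and did not pair the libraries. The members and gene lists were chosen with earlier results of these data known. The genes named were all 10 members, list genes called in the Lama5 experiment, and the 3 profiles nearest to Pdgfb, Pdgfrb and Kcnj8. A few genes of these lists are not reported here by name. The tests in microglia-like cells and cluster 11, the fit over both classes, the depth ranges and the motifs were added after results were seen. Promoter sequences are from RefSeq (GRCm38.p6) and coordinates from GENCODE M21, in which 30934 of 31053 genes were matched.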

Additional observations from a re-analysis of the deposited data

Results flagged for a closer look

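Several members lay on opposite sides of WT in the 2 knockouts, with every knockout library of one experiment above both of its WT libraries and the other below. This was seen in 8 of 25 comparisons of a member in a population, against 5 on the same side, and the differences between knockouts were not tested. The share of all genes on opposite sides was not computed, so these counts are not read as a trait of the members. In pericyte-like cells of Lama4-/- alone, 39.1% of all genes counted lay below both WT libraries. The comparisons also share genes and libraries. Log2 differences are given for Tek-Cre:Lama5-/- first and Lama4-/- second. In pericyte-like cells Pdgfrb had 0.088 and -0.23, Abcc9 0.13 and -0.29, and Vtn -0.086 and 0.067. In smooth muscle-like cells Cspg4 had -0.17 and 0.17 and Rgs5 0.071 and -0.46. In cluster 11 Cspg4 had -0.091 and 0.415. Pdgfb had -0.20 and 0.16 in endothelial-like cells and 0.45 and -0.30 in microglia-like cells. On unscaled totals the Tek-Cre:Lama5-/- libraries were not both above WT for Pdgfrb and Abcc9 in pericyte-like cells or for Rgs5 in smooth muscle-like cells.

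Between cell classes the Tek-Cre:Lama5-/- effect differed by test. Microglia-like minus endothelial-like, it was 0.68 for Pdgfb (edgeR adjusted p 2.22e-13) and 1.503 for Vtn (adjusted p 0.0123). The microglial Vtn change behind the latter rests on few UMIs, ran from 0.46 to 2.33 with a library left out, and lost its call without WT library 2 and without knockout library 1.

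Cells recovered per 100 endothelial-like cells also moved in opposite directions, untested between knockouts. The change was 0.539 in Tek-Cre:Lama5-/- and -2.34 in Lama4-/- for pericyte-like cells, 0.758 and -1.89 for smooth muscle-like cells, and 0.725 and -2.99 for cluster 11. These populations are divided by the same endothelial-like counts. As a share of cells kept, pericyte-like cells and cluster 11 of Tek-Cre:Lama5-/- overlap WT.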

How the results depend on the processing

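Of 536 alternatives for values outside the main results, mostly of single genes, 450 were counted as unchanged. For tests this meant the same direction and the same side of the threshold. For Lama4-/- ratios and shares of cells it meant a value inside the counting interval of the main one. For counts of list genes it meant a count close to the main one. For the Tek-Cre:Lama5-/- test in pericyte-like cells (36 genes called) the count was 24 to 38 with each library left out, 65 with a replicate block, 6 with DESeq2, 11 with stricter cell filters, 10 at resolution 2, 22 with members allowed to shape clusters and 364 with clusters 11 and 30 added. The smooth muscle-like count (204) was 86 to 179 with a library left out, DESeq2 48, doublets kept 549, resolution 2 417 and members allowed 24. In endothelial-like cells (2350) DESeq2 gave 834. WT pools in pericyte-like cells (1173) gave 715 to 896, and 2108 with both clusters added. Genes past the fold in Lama4-/- were 4155 without a filter and 280 with both clusters added in pericyte-like cells (779), 276 to 376, 3428 without a filter and 145 with doublets kept in smooth muscle-like cells (241), and 28 to 84 and 615 without a filter in endothelial-like cells (55). PDGF pathway calls in endothelial-like cells (2) were 2 to 3, 5 with the block, 1 with DESeq2, 4 with stricter filters, 5 with members allowed and 4 with the arterial cluster added. Other pericyte markers (0 called) gave 1 in pericyte-like cells with both clusters added, and 0 to 1 in endothelial-like cells with a library left out. The Lama4-/- difference in pericyte-like cells as a percent of cells kept (-0.594) was -0.496 at resolution 2 and -0.477 with doublets kept. The share of cells with 5 or more members (92.8%) was 97.7% unthinned and 99.7% at 2000 UMIs, and 8 members, not 5, were 10-fold higher with members allowed.

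The directions that reversed belong to differences that had not been called, except, between WT pools, Abcc9 in pericyte-like cells (-0.17 with both clusters added) and Vtn in smooth muscle-like cells (-0.25 with stricter filters). With a library left out, Anpep ran from -0.011 to 0.15, Atp13a5 from -0.033 to 0.073 and Rgs5 from -0.031 to 0.064 in pericyte-like cells, Vtn from -0.060 to 0.013 and Higd1b from -0.14 to 0.037 in smooth muscle-like cells, and Pdgfb between WT pools from -0.66 to 0.16. In pericyte-like cells Rgs5 was -0.048 and Higd1b -0.0020 with stricter filters, and Rgs5 -0.070 and Pdgfrb -0.016 with both clusters added. In smooth muscle-like cells Pdgfrb was 0.16 and Vtn 0.19 with members allowed, Rgs5 -0.083 with doublets kept, Vtn 0.080 with stricter filters, and Vtn 0.25 and Higd1b 0.052 at resolution 2. Pdgfb between WT pools was 0.042 with stricter filters and 0.36 with both clusters added. Causes were not tested. In pericyte-like, smooth muscle-like and endothelial-like cells the block changed the call of 1 member, Vtn between WT pools in smooth muscle-like cells (0.33, adjusted p 0.0911). Replicate numbers did not pair the libraries (correlations of same-numbered deviations from -0.007 to 0.030). Depth limits Pdgfb in pericyte-like cells (60 UMIs) and Anpep (595 UMIs).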
